A study of Mus musculus with 9 samples.

Results

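The collagen chain genes of the mouse heart were described in 9 hearts, 5 from wild-type (WT) mice and 4 from RORasg/sg mice. A gene was a member when the accession of an array probe mapped to a symbol of the form Col, a number, a and a number. All 44 such symbols in the naming table had a probe on the array, 76 probes in all. Members were kept when a probe was well above the local background on at least 4 of the 9 arrays, which left 41 genes. The 27774 genes tested, called all genes below, also include entries without a gene symbol. The 41 comprised 11 fibrillar chains, the 6 chains of type IV of the basement membrane, and 24 chains of other types. The 3 genes not kept were Col12a1 and Col19a1, whose best probe was well above background on 3 arrays, and Col28a1, on 1 array. Every kept gene passed on 8 or 9 arrays, and for all but 4 (Col4a5, Col6a5, Col9a1 and Col14a1, on 8) on all 9, so no member lay near the limit. On the probe used for each of those 4 genes, the array that fell short was a RORasg/sg one.

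The mice were untreated C57BL/6 males, 3 to 4 months old, weaned at 3 weeks onto NIH31 diet. The sg allele is staggerer, a deletion within the Rora gene, which encodes the nuclear receptor RORalpha, and RORasg/sg mice are homozygous for it. The mutation is inherited, so RORalpha was lost in every cell of the animal and not in the heart alone. The series compared the hearts in a study of RORalpha in cardiac hypertrophy.

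Collagens are triple helices of 3 alpha chains, each chain encoded by its own gene. Fibrillar chains of types I, III and V form the load-bearing fibrils of the heart's interstitium and are made there mainly by fibroblasts, whereas type IV forms the network of the basement membrane around cardiomyocytes and capillaries. Type VI forms beaded filaments at the border between basement membrane and interstitium, and the remaining types decorate fibrils, span the plasma membrane or form other networks. Fibrosis is the accumulation of such chains, above all of types I and III, in an injured or overloaded heart.

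RNA of each heart was read on its own Agilent array with a single dye. Levels are log2 of the processed signal over the array's own 75th percentile, and differences are RORasg/sg minus WT on that scale. They compare the same probe between hearts and never one probe with another. Where levels of a gene list are summed, linear signals of different probes are added, so the brightest probes weigh most. The share of probes well above background was 80.7% to 87.8% per array, and no spot was saturated. The 75th percentile of signal was 436 to 684 on WT arrays and 264 to 773 on RORasg/sg arrays. On 5 arrays it was over 500, namely WT 1, 2, 3 and 5 and RORasg/sg 1, which are called the brighter arrays. RORasg/sg 2, 3 and 4 and WT 4 were dimmer. Hearts 1 and 2 of both groups shared slide 1, hearts 3 and 4 of both groups shared slide 2, and WT 5 was on slide 3. The median difference of all genes was 0.41 with this scaling and -0.17 without scaling, so signs of small differences depend on it. Rora was lower in each RORasg/sg heart (highest 0.083) than in each WT heart (lowest 1.51), with a difference of -4.13 (limma, Benjamini-Hochberg adjusted p = 0.224). The probe's place relative to the deletion is not known, so it is a weak check of the labels. In whole-heart RNA, fewer cells of a type and less RNA per cell cannot be told apart.

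No collagen gene differed between the groups after adjustment. In limma, 0 of 41 had an adjusted p under 0.05, where 0.0036% of all genes (1 gene, lower) did. At an unadjusted p under 0.05, 7 collagen genes were higher in RORasg/sg hearts, against 4.94% of all genes, and 0 were lower, against 6.62%. The 7 were Col6a3, Col3a1, Col8a2, Col1a1, Col26a1, Col20a1 and Col17a1, in order of p. The groups did not overlap, with RORasg/sg above WT, in 3 genes (Col2a1, Col3a1 and Col6a3), where 1.12% of all genes did so. In 0 genes did every RORasg/sg heart lie below, where 1.71% of all genes did.

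The mean was higher in RORasg/sg hearts for 34 of the 41 genes and lower for 7 (22 and 19 without scaling), and for all genes 18506 were higher and 9268 lower. The median difference was 0.74 over the 41 genes, 0.79 over fibrillar chains, 0.32 over type IV and 0.75 over the other chains, against 0.41 over all genes. Of the 41, 26 lay above the median of all genes. Without scaling, the medians were 0.094 for all collagens, 0.22 for fibrillar, -0.26 for type IV and 0.12 for the other chains, against -0.17 for all genes. With the mean of a gene's kept probes, the type IV median was -0.15, so its sign rests on the scaling and the probe. The spread among RORasg/sg hearts was the larger one in all 41 genes, as it was in 86.1% of all genes. The median SD over collagen genes was 0.583 among WT hearts and 1.49 among RORasg/sg hearts.

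**Figure D1:**
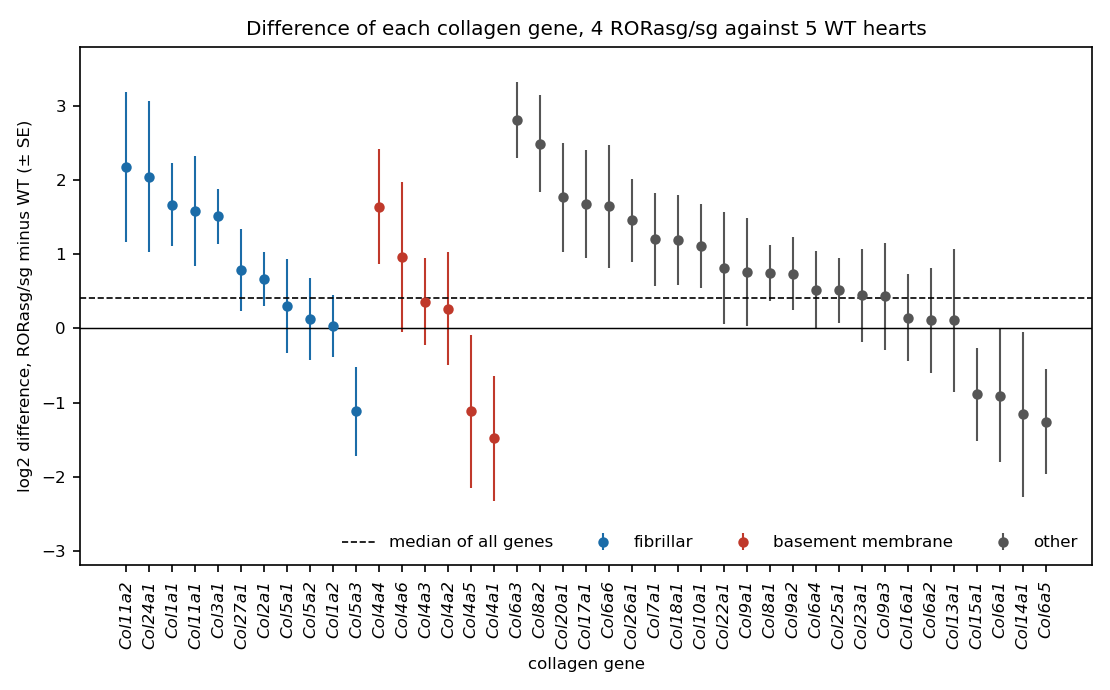
Difference in mean log2 signal between 4 RORasg/sg and 5 WT hearts for each of the 41 collagen genes (y axis, log2 units; error bars, SE from limma), ordered by size within the 3 classes. The dashed line is the median of all genes at 0.41, above which 26 of the collagen genes lie. Without scaling, that line would stand at -0.17 and the points would move down as well, Col1a1 from 1.67 to 1.10.

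**Figure D2:**
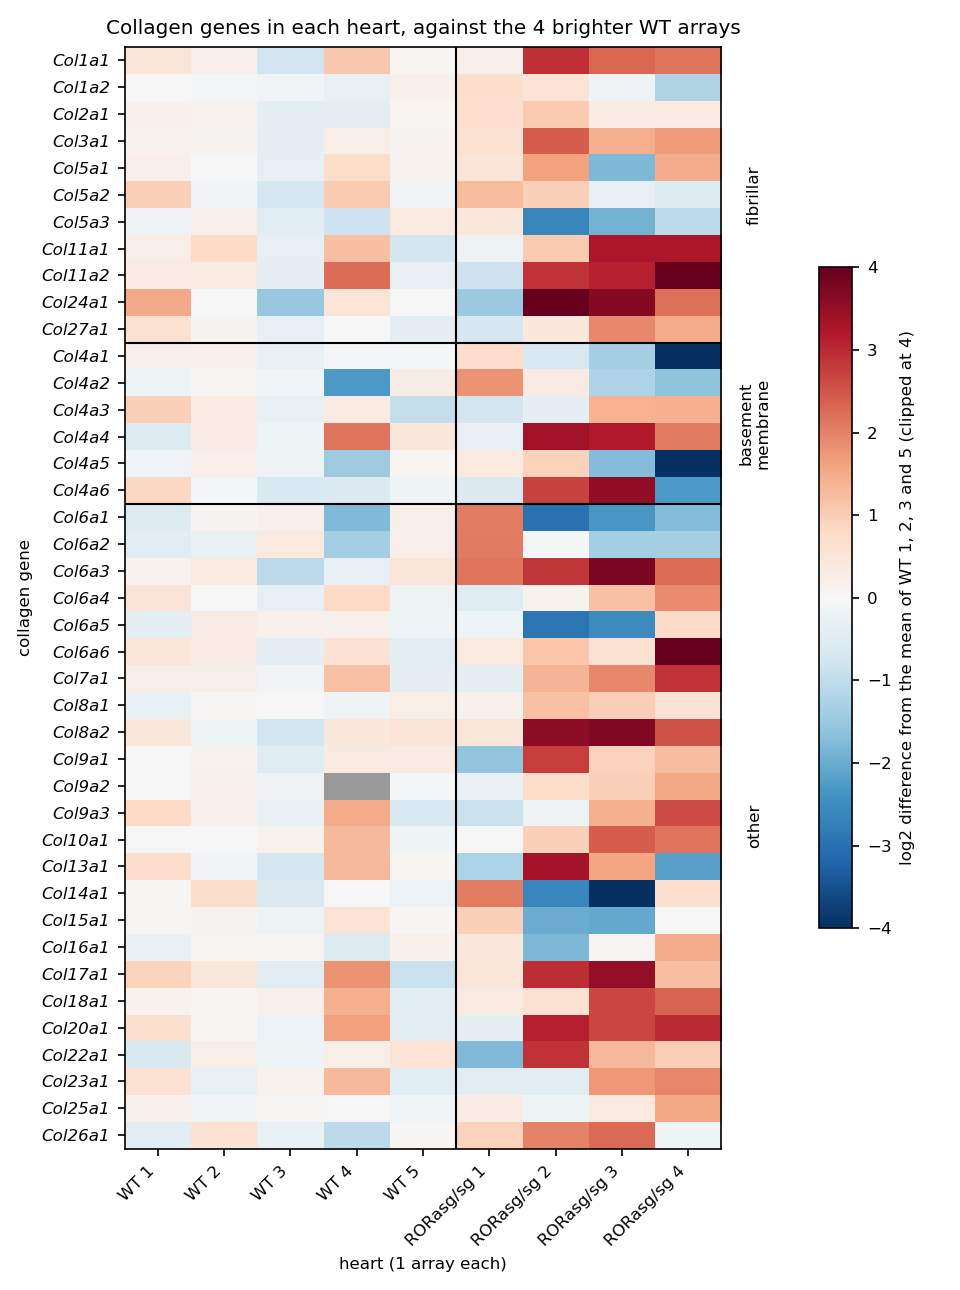
Each collagen gene (rows) in each heart (columns) as the log2 difference from the mean of WT 1, 2, 3 and 5, clipped at 4; the grey cell of Col9a2 is a spot left out for its outlier flag. RORasg/sg 2, 3 and 4 depart most from the WT hearts, RORasg/sg 1 often departs the other way, and WT 4 shares some of the departures of the dimmer arrays.

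Types I and III make up most fibrillar collagen of the heart. Col3a1, the chain of the homotrimer type III, read 4.05, 4.03, 3.53, 4.13 and 4.02 in WT hearts (1 to 5, in order here and throughout). The RORasg/sg hearts, in order from 1 to 4, read 4.53, 6.35, 5.38 and 5.61. The groups did not overlap, and RORasg/sg 1 stood closest to WT. The means were 3.95 ± 0.240 (SD, n = 5) and 5.47 ± 0.747 (SD, n = 4), a difference of 1.51 (SE 0.375) or 2.85-fold. The limma adjusted p was 0.348. The difference was 1.40 within slide 1 and 1.66 within slide 2. It depended on the probe: the other kept probe of Col3a1, also well above background on all 9 arrays, differed by -0.059 (SE 0.652). On that probe RORasg/sg 1 was highest of the 9 hearts at 0.28 and RORasg/sg 2, the highest on the main probe, was lowest at -2.92.

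Col1a1, the chain present as a pair in type I collagen, read 3.08, 2.77, 1.82, 3.67 and 2.67 in WT hearts and 2.79, 5.50, 4.89 and 4.72 in RORasg/sg hearts. RORasg/sg 1 lay within the WT range and the other three above it. The difference was 1.67 (SE 0.558, 3.19-fold; limma adjusted p = 0.398). Its other kept probes differed by 0.0023 and 1.41, the latter through RORasg/sg 4 alone, which read 3.18 where the other RORasg/sg hearts read from -1.07 to -0.068. Col1a2, the partner chain, has a single probe. It read 3.92, 3.88, 3.82, 3.62 and 4.10 in WT hearts and 4.62, 4.47, 3.78 and 2.72 in RORasg/sg hearts. Its difference of 0.032 (SE 0.415) turned to -0.54 without scaling. The difference between the chains, Col1a1 minus Col1a2, was taken after each was set to its mean over all WT hearts. It ran from -0.94 to 1.11 in WT hearts and was -0.76, 2.09, 2.17 and 3.06 in RORasg/sg hearts. The 2 chains, which are joined in one molecule, thus stood further apart on the 3 dimmer RORasg/sg arrays than on any WT array, with the main probe of Col1a1.

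**Figure D3:**
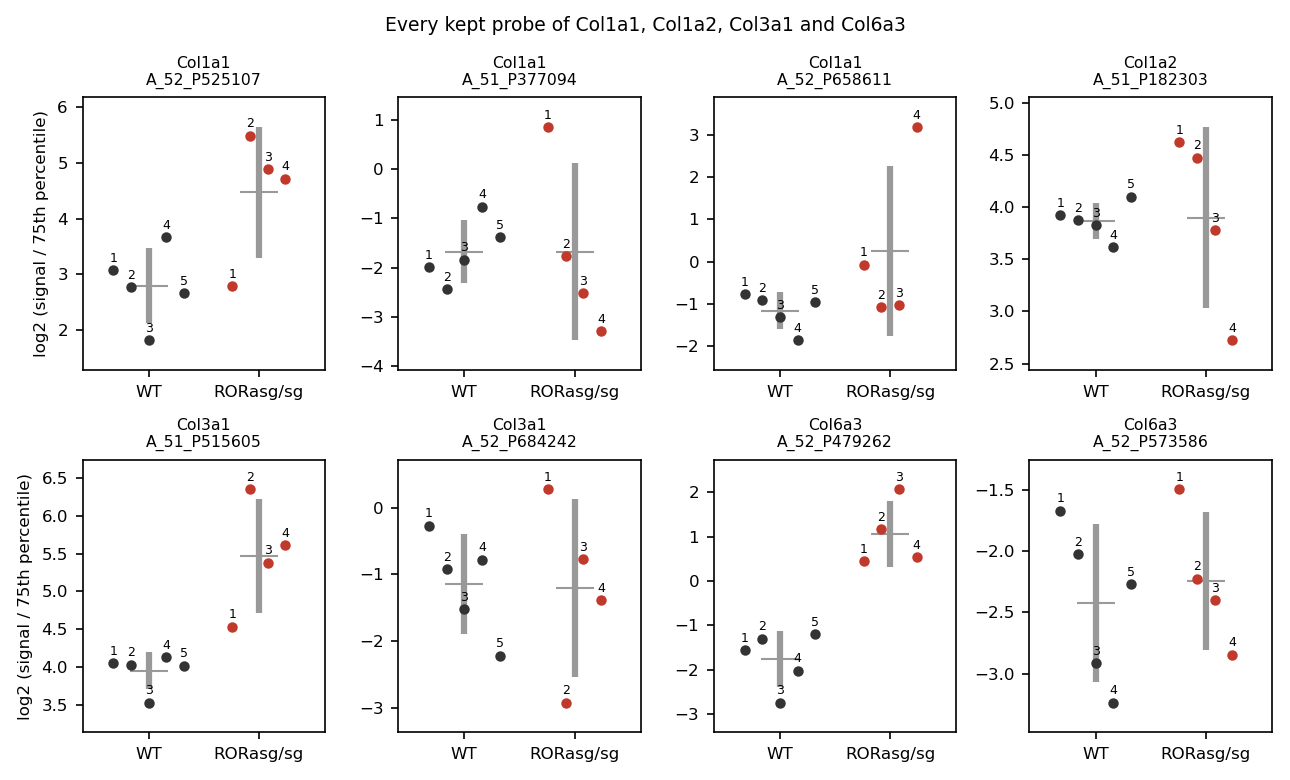
Log2 signal over the 75th percentile (y axis) on every kept probe of Col1a1, Col1a2, Col3a1 and Col6a3, with each heart as a numbered point and the grey bars as mean ± SD of 5 WT and 4 RORasg/sg hearts. The main probes of Col3a1 and Col6a3 separate the groups, and their other probes, with differences of -0.059 and 0.18, do not.

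Type V chains nucleate and limit the width of type I fibrils. Col5a1 differed by 0.30 (SE 0.632) and Col5a2 by 0.13 (SE 0.553), both negative without scaling (-0.27 and -0.45). Col5a3 had the lower mean in RORasg/sg hearts. It read 1.22, 1.58, 0.94, 0.53 and 1.75 in WT hearts and 1.78, -1.23, -0.53 and 0.31 in RORasg/sg hearts, so RORasg/sg 1 was the highest and the other three the lowest of the 9. The difference was -1.12 (SE 0.5998, limma adjusted p = 0.418), and its dimmer probe differed by 0.44.

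Col2a1, the fibrillar chain of cartilage, read from 2.02 to 2.55 in WT hearts and 3.05, 3.44, 2.69 and 2.72 in RORasg/sg hearts. The groups did not overlap, yet the difference was only 0.67 (SE 0.365, limma adjusted p = 0.418) and 0.094 without scaling, and the groups overlapped on its other probe, which differed by 0.73. Cartilage markers had a median difference of 0.47 over the 6 of 8 kept, near that of all genes. Matn1 and Cnmd were not kept, and summed levels of the list were 0.902 to 2.43 in WT and 1.24 to 2.70 in RORasg/sg hearts, so their part in the result was not tested. Col11a1 and Col11a2, minor chains within cartilage-type fibrils, differed by 1.58 (SE 0.744) and 2.18 (SE 1.01). Col11a2 read -0.90 in WT 4 where other WT hearts read from -3.50 to -2.78, and in RORasg/sg hearts it read -3.96, -0.25, -0.020 and 2.19. Its value in the dimmer WT heart stood nearer those of RORasg/sg 2 and 3 than those of the other WT hearts, and RORasg/sg 4 lay further off. Col24a1, a fibrillar chain of developing bone and eye, differed by 2.05 (SE 1.02) with -5.25 in RORasg/sg 1 and -1.57 to 0.41 in the others. None of these 4 genes had a limma adjusted p below 0.418.

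Type IV chains pair in fixed combinations, Col4a1 with Col4a2 throughout the vasculature and Col4a3, Col4a4 and Col4a5 in specialised membranes. Col4a1 read 3.11, 3.06, 2.61, 2.83 and 2.84 in WT hearts and 3.60, 2.26, 1.56 and -1.80 in RORasg/sg hearts. RORasg/sg 1 was above, and the other three below, all WT hearts. The difference was -1.48 (SE 0.845, limma adjusted p = 0.418), with -0.15 within slide 1 and -2.83 within slide 2. On its other probe the hearts read 3.19, 0.68, 1.71 and 1.19 against 1.35 to 1.75 in WT, a difference of 0.059.

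Col4a2 read 0.54, 0.79, 0.63, -1.55 and 1.05 in WT hearts and 2.54, 1.07, -0.49 and -0.86 in RORasg/sg hearts. RORasg/sg 1 was again highest. The difference was 0.27 (SE 0.758) and -0.30 without scaling. Both probes of Col4a2 put RORasg/sg 1 above every WT heart, the dimmer one at 1.81 against at most -0.44. Col4a5, on the X chromosome, read 0.34, 0.64, 0.25, -0.995 and 0.52 in WT hearts and 0.82, 1.35, -1.28 and -4.76 in RORasg/sg hearts, a difference of -1.12 (SE 1.03). Col4a4 differed by 1.64 (SE 0.776), Col4a6 by 0.96 (SE 1.01) and Col4a3 by 0.36 (SE 0.587), and the signs of Col4a3 and Col4a6 differed between their kept probes. The Col4a3 difference was -0.21 without scaling. Over the main probes of the 6 chains, RORasg/sg 4 had a median of -1.95 relative to the brighter WT mean, while all genes in that heart had 0.81.

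Type VI is assembled from Col6a1, Col6a2 and one of several longer chains, most often Col6a3. On its brightest probe, Col6a3 had the largest difference and smallest p of the 41 genes. With the mean of kept probes its difference was 1.498, below those of Col8a2 (2.50), Col20a1 (1.77), Col6a6 (1.65) and Col4a4 (1.64). It read -1.55, -1.30, -2.74, -2.02 and -1.20 in WT hearts and 0.44, 1.17, 2.06 and 0.54 in RORasg/sg hearts. All RORasg/sg values, that of RORasg/sg 1 included, exceeded all WT values. The means were -1.76 ± 0.630 (SD, n = 5) and 1.06 ± 0.745 (SD, n = 4), a difference of 2.82 (SE 0.508) or 7.04-fold. The limma adjusted p was 0.340, and the difference was 2.23 within slide 1, 3.68 within slide 2 and 2.14 in the brighter arrays. Its other kept probe differed by only 0.18 (SE 0.471), with -1.495, -2.22, -2.40 and -2.85 in RORasg/sg hearts against -3.24 to -1.67 in WT hearts.

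Col6a1 read -1.62, -0.94, -0.85, -2.83 and -0.82 in WT hearts and 0.99, -4.05, -3.40 and -2.80 in RORasg/sg hearts. RORasg/sg 1 stood above every WT heart, and WT 4 stood among the dimmer RORasg/sg hearts. The difference was -0.91 (SE 0.900, limma adjusted p = 0.544). Col6a2 read 0.22, 0.38, 1.03, -0.72 and 0.90 in WT hearts and 2.72, 0.58, -0.72 and -0.68 in RORasg/sg hearts. Its difference was 0.11 (SE 0.709), or -0.46 without scaling. So the 2 short chains shared the high value of RORasg/sg 1 and the low value of WT 4. On the main probe of Col6a3 WT 4 lay within the WT range, whereas on its other kept probe WT 4 was the lowest of the 9 hearts (-3.24) and RORasg/sg 1 the highest (-1.495). Col6a1 minus Col6a2, each relative to its mean over all WT hearts, ran from -0.33 to 0.45 in WT hearts. It was 0.038 in RORasg/sg 1 but -2.86 in RORasg/sg 2.

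The alternative long chains varied without a shared direction. Col6a4 differed by 0.52 (SE 0.530), and by -0.052 without scaling. Col6a5 differed by -1.26 (SE 0.703), with -5.23 and -4.84 in RORasg/sg 2 and 3 and the other hearts from -2.64 to -1.54. Col6a6 differed by 1.65 (SE 0.830) through RORasg/sg 4, which read 0.44 where the other 8 hearts read from -4.95 to -3.42.

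**Figure D4:**
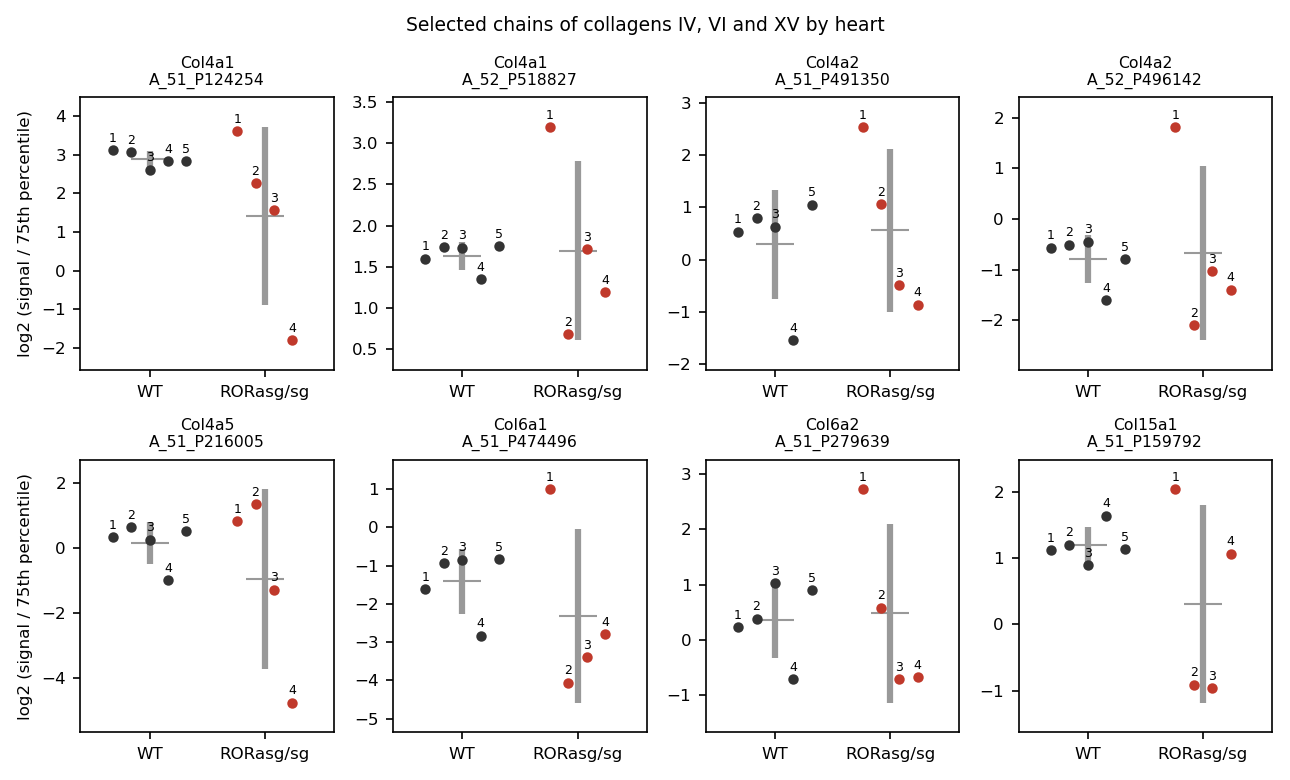
Log2 signal over the 75th percentile (y axis) for 6 type IV, VI and XV chains (8 probes) picked after their values were seen, each heart a numbered point and grey bars the mean ± SD of 5 WT and 4 RORasg/sg hearts. RORasg/sg 1 lies above all WT hearts in these panels, but it does not for Col4a3, Col4a4, Col4a6, Col6a4, Col6a5 and Col6a6, which are not drawn.

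Type VIII, a short-chain network former of vessel walls, is a mixture of Col8a1 and Col8a2. Col8a2 read -1.497, -2.09, -2.70, -1.51 and -1.42 in WT hearts and -1.45, 1.66, 1.78 and 0.62 in RORasg/sg hearts. RORasg/sg 1 lay inside the WT range and the other three above it. The difference was 2.50 (SE 0.657, 5.64-fold; limma adjusted p = 0.373). Col8a1 differed by 0.75 (SE 0.378, limma adjusted p = 0.418), and on its other kept probe by 0.67 (SE 0.718). The probes disagreed in RORasg/sg 3, which read 3.00 on the main probe, above all WT hearts. On the other probe it read -2.26, below all WT hearts. Col10a1, the network former of hypertrophic cartilage, differed by 1.11 (SE 0.563).

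The multiplexins Col15a1 and Col18a1 carry sugar chains and lie in basement membranes of muscle and vessels. Col15a1 read 1.12, 1.20, 0.89, 1.64 and 1.13 in WT hearts and 2.03, -0.91, -0.96 and 1.07 in RORasg/sg hearts. On this main probe RORasg/sg 1 was the highest heart and RORasg/sg 2 and 3 the lowest. The difference was -0.89 (SE 0.628, limma adjusted p = 0.439). On its other kept probe RORasg/sg 1 and 2 read 0.16 and 0.033, above all WT hearts (-1.40 to -0.12). RORasg/sg 3 was lowest there at -3.09, and the difference was -0.26 (SE 0.658). Col18a1, the source of endostatin, read from -0.99 to 0.88 in WT hearts and -0.21, 0.042, 2.11 and 1.76 in RORasg/sg hearts. It differed by 1.20 (SE 0.604, adjusted p = 0.418), and by 1.06 on its other probe.

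Fibril-associated chains bind the surface of fibrils. Col14a1 read from -1.70 to -0.41 in WT hearts and 0.93, -3.75, -5.86 and -0.48 in RORasg/sg hearts, a difference of -1.16 (SE 1.11, adjusted p = 0.530). This probe was well above background on all 5 WT arrays but on 3 of 4 RORasg/sg arrays. The dimmer probe of Col14a1 differed by 1.02 and was well above background on 4 of 5 WT and all 4 RORasg/sg arrays. Col20a1 read -0.56, -1.17, -1.46, 0.42 and -1.65 in WT hearts and -1.56, 1.88, 1.45 and 1.77 in RORasg/sg hearts, a difference of 1.77 (SE 0.739, adjusted p = 0.418). The low value of RORasg/sg 1 stood far from its group. Col17a1, a transmembrane chain of epithelial anchoring, differed by 1.68 (SE 0.724), Col26a1 by 1.46 (SE 0.562) and Col7a1, the anchoring fibril of skin, by 1.21 (SE 0.629). The remaining 9 chains (Col9a1, Col9a2, Col9a3, Col13a1, Col16a1, Col22a1, Col23a1, Col25a1 and Col27a1) differed by 0.11 to 0.82 on their main probes, within the spread of their hearts. Other kept probes of Col13a1, Col25a1 and Col27a1 differed by more, at 1.16, 0.87 and 1.01, and those of Col16a1 and Col23a1 lay inside that range. Of those 9, Col13a1, Col16a1, Col23a1, Col25a1 and Col9a3 had negative differences without scaling.

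RORasg/sg 1 was the only RORasg/sg heart on a brighter array, so it is compared with the 4 WT hearts of like brightness. Relative to all WT hearts it had 16 of 41 collagen genes above the highest WT value, where 12.6% of all genes lay above, and 9 below the lowest, where 42.6% of all genes lay below. The median of all genes in this heart was -0.34 relative to the brighter WT mean. The collagens did not share a direction there: 23 of 41 were higher and 18 lower than the brighter WT mean, and of the 24 other chains 8 lay above and 7 below all WT hearts. Among the 24 collagen genes with 2 or more kept probes, 6 had every probe above all WT hearts (Col3a1, Col4a1, Col4a2, Col6a3, Col14a1 and Col15a1), against 5.92% of all such genes. In 3 of the 24 (Col6a4, Col11a2 and Col13a1) every probe lay below, against 11.3% of all such genes.

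In the 5 brighter arrays, limma called 4 collagen genes higher in RORasg/sg 1, where 1.29% of all genes were called higher, and 0 lower, where 2.99% were. They were Col4a2 (1.78, SE 0.258, adjusted p = 0.0207), Col6a2 (2.09, SE 0.331, adjusted p = 0.0250), Col6a1 (2.05, SE 0.352, adjusted p = 0.0271) and Col14a1 (2.06, SE 0.437, adjusted p = 0.0398). These calls rest on 1 RORasg/sg heart, which the fit assumes to vary like the WT hearts, and they say nothing of the spread among RORasg/sg mice. At an unadjusted p under 0.05, 11 of 41 collagen genes were higher, where 6.39% of all genes were, and 3 lower, where 17.5% were. Col6a3 was 2.14 higher, Col5a2 1.28, Col15a1 0.95 and Col1a2 0.69 higher, without passing adjustment. On the same array 12.6% of all genes lay above every WT heart and 42.6% below. Above lay 4 of 12 fibroblast markers (Postn, Dpt, Mfap5 and Mfap4), 4 of 12 endothelial and 3 of 12 cardiomyocyte markers. Below every WT heart lay 2 fibroblast, 3 endothelial and 3 cardiomyocyte markers, and the part of these markers in the result was not tested.

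Without RORasg/sg 1 the remaining RORasg/sg hearts were all on dimmer arrays, and limma called 20 of 41 collagen genes, 17 higher, where 28.5% of all genes were called higher, and 3 lower, where 8.89% were. In order of p, the 17 were led by Col8a2 (3.20, SE 0.435, adjusted p = 0.00321), Col3a1 (1.82, SE 0.275, adjusted p = 0.00484), Col6a3 (3.02, SE 0.481, adjusted p = 0.00583) and Col1a1 (2.23, SE 0.412, adjusted p = 0.00925), and the largest differences were those of Col11a2 (3.33) and Col24a1 (3.26). Those lower were Col6a1 (-2.01, adjusted p = 0.0215), Col5a3 (-1.68, adjusted p = 0.0229) and Col15a1 (-1.46, adjusted p = 0.0453). Leaving out this heart brought 37.4% of all genes past the threshold. The median difference of all genes was 0.41 in all 9 arrays and -0.34 in the 5 brighter ones. How many of all genes turned in sign was not counted. Among the 41 collagen genes, the sign of the difference turned between these sets of arrays in 23. In 17 it was positive in all 9 and negative in the brighter arrays, as for Col11a2 (2.18 and -0.82), Col24a1 (2.05 and -1.49) and Col22a1 (0.82 and -1.76). In 6 it was negative in all 9 and positive in the brighter arrays, namely Col6a1 (-0.91 and 2.05), Col14a1 (-1.16 and 2.06), Col15a1 (-0.89 and 0.95), Col4a1 (-1.48 and 0.70), Col5a3 (-1.12 and 0.41) and Col4a5 (-1.12 and 0.38). Genotype and array brightness cannot be told apart among the 3 dimmer RORasg/sg arrays, beside which stands WT 4 alone.

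With the main probe of each gene, the class medians followed different paths over the RORasg/sg hearts. Other kept probes could read otherwise. In RORasg/sg 4, Col4a1 read -1.80 on its main probe and 1.19 on its other one, while Col4a3 read -1.40 and -4.56. Relative to the brighter WT mean, the median of fibrillar chains was 0.41, 1.06, 1.47 and 1.47 over RORasg/sg 1 to 4, above the median of all genes in each (-0.34, 0.60, 0.71 and 0.81). Type VI had 1.21, 0.049, -0.38 and 1.32, and type IV 0.032, 0.61, 0.070 and -1.95. Fibroblast markers had 0.78, 0.45, -0.39 and -1.11, endothelial markers 0.037, -1.04, -0.89 and -1.07, and cardiomyocyte markers 0.0003, -0.14, -1.73 and -1.22. The fibroblast marker median was below 0 in RORasg/sg 3 and 4, while the summed level in those hearts exceeded every WT heart. It was 164 and 169.6 there on the linear scale relative to the 75th percentile. The sum is weighted to the brightest probes, led by Gsn, Dcn and Lum (WT means 5.44, 4.44 and 3.70 in log2), and does not stand for the whole list. That sum ran from 74.1 to 155 in WT and from 74.5 to 228 in RORasg/sg hearts, and its part in the result was not tested. All 12 genes passed the filter. Yet Mfap5 was well above background on only 4 of 5 WT and 2 of 4 RORasg/sg arrays, and Dpt on 3 of 4 RORasg/sg arrays. In WT hearts the medians of the fibrillar, type IV and type VI chains lay between -0.36 and 0.49.

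All 12 cardiomyocyte markers were kept, with summed levels of 991 to 1217 in WT and 673 to 1265 in RORasg/sg hearts, as the heart label requires. The median difference was -0.79 over cardiomyocyte, -1.09 over endothelial and -0.18 over fibroblast markers, and 0.084 over mural, -0.0080 over macrophage, 0.50 over Schwann cell, 0.31 over adipocyte and 0.61 over mesothelial markers. None of these genes passed adjustment. At an unadjusted p under 0.05, where 4.94% of all genes were higher and 6.62% lower, 4 of 12 cardiomyocyte markers (Pln, Myl2, Actc1 and Myh6) were lower and 0 higher. Of 12 endothelial markers 4 were lower (Flt1, Tek, Pecam1 and Tie1) and 1, Emcn, higher, and of 11 mural markers 2 were lower (Myh11 and Acta2) and 1, Cspg4, higher. Thy1, a fibroblast surface protein, differed by 2.10 (SE 0.675) and Dcn, the fibril-binding decorin, by -0.65 (SE 0.351).

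**Figure D5:**
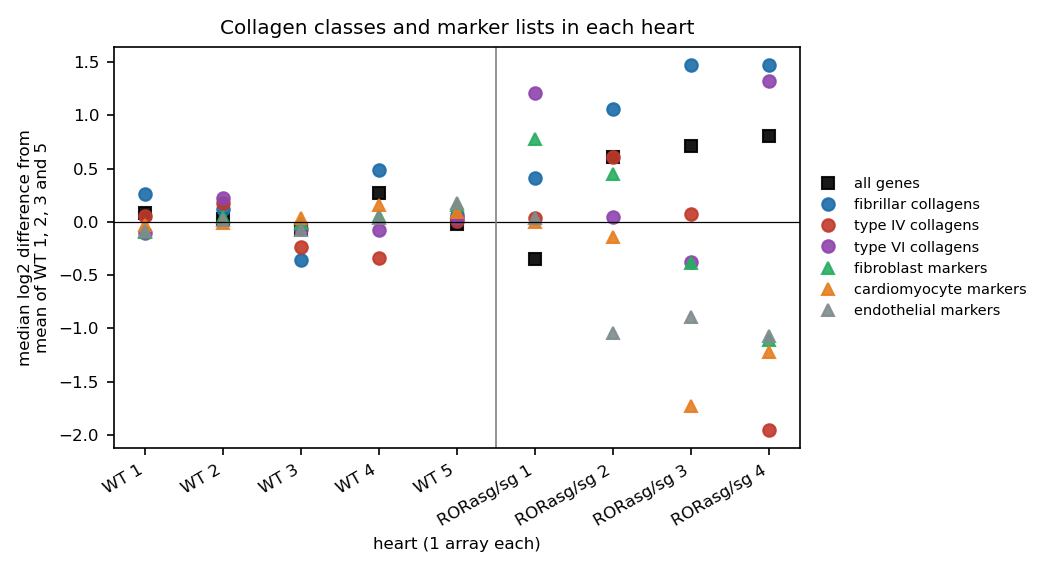
Median log2 difference from the mean of WT 1, 2, 3 and 5 (y axis) for collagen classes (circles), marker lists (triangles) and all genes (squares) in each heart (x axis). Only the main probe of each gene enters, and other kept probes could read otherwise. The fibrillar median lies above that of all genes in the 4 RORasg/sg hearts, the type VI median is highest in RORasg/sg 1 and 4 (1.21 and 1.32), and the type IV median is lowest in RORasg/sg 4 (-1.95).

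Fixed lists of genes that make, process or bind collagen were read in the same fit, and 0 genes passed adjustment in any list. Of the chain-modifying and folding enzymes (17 of 20 kept), 0 were higher and 1 was lower by unadjusted p (under 0.05), where 4.94% and 6.62% of all genes were, and the median difference was -0.059. Plod1, a lysyl hydroxylase, was the lower one, differing by -1.93 (SE 0.634, limma adjusted p = 0.395). P4ha1, a prolyl hydroxylase subunit, differed by -1.96 (SE 1.09) and Ppib, a peptidyl-prolyl isomerase, by 0.98 (SE 0.475). Of the processing and cross-linking enzymes (14 of 15 kept), 1 was higher, Adamts2, the procollagen N-proteinase, by 1.83 (SE 0.788), and 0 were lower. Lox, the lysyl oxidase, differed by -2.42 (SE 1.19), and was well above background in 4 of 5 WT hearts but in 1 RORasg/sg heart of 4.

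Of the matrix partners (24 of 25 kept), 4 were higher and 1 lower at the unadjusted threshold, against the same shares of all genes. The higher ones were Tnc, the matricellular tenascin (2.45, SE 0.787), Fn1, the fibronectin on which fibrils assemble (1.20, SE 0.471), Fmod (1.18, SE 0.494) and Nid1, a basement membrane linker (1.20, SE 0.528). Thbs2 differed by -1.83 (SE 0.662). Of the collagen receptors (10 of 12 kept), Itga1, an integrin chain, differed by -1.68 (SE 0.5997) and Itgb1, its partner, by -2.51 (SE 1.36). Their adjusted p values in limma were at least 0.385. In RORasg/sg 1, 8 of 17 modifying enzymes, 6 of 14 processing enzymes, 11 of 24 partners and 1 of 10 receptors lay above every WT heart, where 12.6% of all genes did. Below every WT heart lay 4, 4, 6 and 3 of them, where 42.6% of all genes did. The modifying enzymes above were P4ha1, P4hb, Plod2, Plod3, P3h3, P3h4, Colgalt1 and Fkbp10, and the processing enzymes Bmp1, Pcolce, Pcolce2, Lox, Loxl1 and Loxl2.

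Probes of the same gene set a limit to these values. Of the 24 collagen genes with at least 2 kept probes, 18 (75%) had probes of one sign, against 3572 of 6550 (54.5%) of all genes. Those with opposite signs were Col3a1, Col4a1, Col4a3, Col4a6, Col5a3 and Col14a1, and their probes differed by 1.15 to 2.18 from each other. Closest in the group difference were Col2a1, Col8a1 and Col18a1, whose probes differed by 0.063, 0.086 and 0.14. Single hearts could still disagree. On Col2a1, RORasg/sg 1 lay above all WT hearts on the main probe (3.05) and below them on the other (-2.25). On Col8a1, RORasg/sg 3 did likewise (3.00 and -2.26). Of 5 collagens on chromosome 9, which also carries Rora, Col7a1, Col6a4 and Col6a6 had higher means and Col5a3 and Col6a5 lower means, Col6a4 turning negative without scaling.

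Promoters were compared for sequence letters only. RefSeq windows of 250 bases upstream of the annotated start (GRCm38.p6) were available for 33 of the 41 genes, Col1a1 not among them. The core CCAAT, on either strand, was found in 13 of their 36 windows (36.1%), against 33.8% of 32851 windows of all genes, TATAAA in 5 (13.9%), against 12.4%, and AGGTCA, the core to which RORalpha binds when an A and T rich stretch precedes it, in 8 (22.2%), against 14%. The 8 genes were Col4a4, Col6a5, Col7a1, Col9a1, Col11a1, Col20a1, Col23a1 and Col24a1. The 4 windows below are those of the partner chain of type I, of the members with the clearest separation (Col3a1 and Col6a3), and of a member with the AGGTCA core (Col20a1). Capitals mark CCAAT in Col1a2 at position -109, TATAAA in Col3a1 at -117 and the AGGTCA core on the other strand, read as TGACCT, in Col20a1 at -28, and Col6a3 held none of these letters. They lie at chr6:4505368-4505617 (plus strand), chr1:45311288-45311537 (plus), chr1:90843972-90844221 (minus) and chr2:180986285-180986534 (plus).
Col1a2: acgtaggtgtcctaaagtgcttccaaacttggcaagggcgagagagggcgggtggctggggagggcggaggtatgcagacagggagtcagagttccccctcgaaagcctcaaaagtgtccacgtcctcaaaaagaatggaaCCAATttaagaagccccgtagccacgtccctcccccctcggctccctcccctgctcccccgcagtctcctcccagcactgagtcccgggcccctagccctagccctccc
Col3a1: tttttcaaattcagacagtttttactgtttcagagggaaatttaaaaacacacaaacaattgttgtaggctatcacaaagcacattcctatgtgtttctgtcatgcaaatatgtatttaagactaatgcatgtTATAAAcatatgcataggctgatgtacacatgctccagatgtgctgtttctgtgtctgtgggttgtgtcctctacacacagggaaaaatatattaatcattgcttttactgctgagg
Col6a3: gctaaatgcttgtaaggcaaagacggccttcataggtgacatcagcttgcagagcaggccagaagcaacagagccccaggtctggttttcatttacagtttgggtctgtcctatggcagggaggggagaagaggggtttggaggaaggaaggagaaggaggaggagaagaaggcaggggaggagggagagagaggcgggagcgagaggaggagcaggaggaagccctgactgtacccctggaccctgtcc
Col20a1: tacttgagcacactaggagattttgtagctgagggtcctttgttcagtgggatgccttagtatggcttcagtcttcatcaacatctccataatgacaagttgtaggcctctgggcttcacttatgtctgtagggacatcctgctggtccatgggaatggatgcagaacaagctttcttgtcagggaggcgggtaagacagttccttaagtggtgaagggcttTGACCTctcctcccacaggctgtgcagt

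Col4a1 (minus strand) and Col4a2 (plus strand) lie on opposite strands of chromosome 8, and their annotated 5′ ends overlap by 22 bases. Col4a1 minus Col4a2 was read on the main probes, each gene relative to its mean over all WT hearts. The difference ran from -0.81 to -0.023 in 4 WT hearts and was 1.78 in WT 4. It ran from -3.53 to -0.54 in RORasg/sg hearts, overlapping with WT. On their other kept probes the genes differed alike between the groups, by 0.059 and 0.11.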

How the data were processed

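Per the labels' protocols, 70 ng of total heart RNA was amplified (NuGEN Ovation Pico WTA) and 5 ug of product was labelled with Cy3. Per the file headers, scans (design 014868) were read with Feature Extraction 12.0.0.7, given as Agilent Feature Extraction 12 in the submitters' processing notes. The authors' deposited intensity is the background-subtracted processed signal, linear and unscaled, and their series-wide values were the same. From it, log2 of the signal over each array's 75th percentile was computed, leaving out 758 outlier spots and averaging spots of a probe. The filter of at least 4 arrays kept 36404 of 41174 probes, and a gene took its kept probe with the highest mean. Accessions were named through RefSeq's table for GRCm38.p6 (28223 probes matched, 19096 symbols). Probes without a match were counted as genes under their array name. Each share or median over all genes therefore includes such entries.

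The fit was limma's (version 3.58.1, R 4.3.3), with lmFit and then eBayes with a trend. It was Benjamini-Hochberg adjusted over 27774 genes with a threshold of 0.05. A run on simulated data gave both groups the WT spread of each gene. It therefore cannot show how the fit behaves with the larger spread of the RORasg/sg hearts. Other tools were data.table (version 1.17.8), Python 3.11.15 and matplotlib 3.10.9. The members and lists were chosen with earlier results of these data known. Named were all members of types I, III, IV, V, VI, VIII, XV and XVIII, the 8 others with the smallest p, members whose groups do not overlap or whose probes disagree in sign, and up to 4 genes of each list with the smallest p. Alternatives were 3 other scalings, normexp (offset 50), other filters, the mean of probes, blocks for slide and for replicate number, brightness, eBayes without a trend, and each array left out; testing each kept probe alone was added after the data were seen. Deviations of same-numbered hearts of both groups had correlations of 0.046, -0.0069, -0.33 and 0.39. Differently numbered hearts were not compared, so these values cannot decide whether the numbers pair the hearts. The main fit left the hearts unpaired. Each heart came from its own mouse, and 9 arrays limit the precision.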

Additional observations from a re-analysis of the deposited data

Results flagged for a closer look

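In 7 of the 82 groups screened (41 genes in each genotype), 1 heart stood far from its group, where chance gives about 1 group in 20. In WT hearts, Col4a2 (-1.55), Col4a5 (-0.995), Col10a1 (-2.12) and Col11a2 (-0.90) were far from the rest in WT 4, the only dimmer WT array, and Col3a1 was low in WT 3 (3.53 against 4.02 in the nearest heart). In RORasg/sg hearts, Col6a6 was high in RORasg/sg 4 (0.44 against -3.42) and Col20a1 low in RORasg/sg 1 (-1.56 against 1.45), the only brighter RORasg/sg array. The part of array brightness in these values was not tested.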

How the results depend on the processing

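The collagen genes called were 0 of 41 in all 9 arrays and in each alternative except the 5 brighter arrays (4) and the fit without RORasg/sg 1 (20); leaving out each heart gave 0 to 20. The genes called, 1 in all 9 arrays, were 1189 in the 5 brighter arrays, 9 with the replicate block, 3 without scaling, 2 after quantile normalization, and 0 with the mean of kept probes, with probes that passed the background flag on each array, with slide as a block, and within slide 1 or slide 2, and ran from 0 to 10392 when hearts were left out (10392 without RORasg/sg 1). The pathway list counts, 0 of 65, were 8 in the 5 brighter arrays and 0 to 24 without single hearts. The collagen median difference of 0.74 was 0.296 in the 5 brighter arrays, 0.0937 without scaling and 1.23 within slide 2, and 0.629 to 0.977 without single hearts. The fibrillar median difference was 0.216 without scaling, 1.66 within slide 2 and 0.7003 to 1.27 without single hearts. The basement membrane median difference, 0.32, was -0.26 without scaling and -0.15 with the mean of kept probes. The other collagen median difference was 0.227, 0.122 and 1.21 in the 5 brighter arrays, without scaling and within slide 2. Col20a1 turned to -0.351 in the 5 brighter arrays. The causes of these changes were not tested. Over the 23 alternatives Col6a3 kept its sign in 23 (1.498 to 3.68), as did Col3a1 (0.62 to 1.82), Col8a2 (0.48 to 3.30) and Col1a1 (0.21 to 2.23). With 9 arrays, differences within the spread of the RORasg/sg hearts were not detectable.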
